A study of Homo sapiens with 32 samples.

Results

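The 10 genes described here encode transcription factors of the NF-κB family, proteins that hold these factors back or work with them, and regulators of the signalling that frees them. They were chosen by symbol, as the rows of the count table whose Ensembl identifiers map to NFKB1, NFKB2, RELA, RELB, NFKBIA, NFKBIE, NFKBIZ, TNFAIP3, BIRC3 and IKBKG, and are 10 of 60107 genes. Each symbol matched 1 row. All are protein-coding genes. In the gene models of GENCODE 29 (GRCh38), on the plus strand, lie NFKBIZ (ENSG00000144802) at chr3:101827991-101861022, NFKB1 (ENSG00000109320) at chr4:102501329-102617302, NFKB2 (ENSG00000077150) at chr10:102394110-102402529, RELB (ENSG00000104856) at chr19:45001430-45038198, TNFAIP3 (ENSG00000118503) at chr6:137867188-137883312, BIRC3 (ENSG00000023445) at chr11:102317450-102339403 and IKBKG (ENSG00000269335) at chrX:154541199-154565046. On the minus strand lie NFKBIA (ENSG00000100906) at chr14:35401511-35404749, NFKBIE (ENSG00000146232) at chr6:44258166-44265788 and RELA (ENSG00000173039) at chr11:65653596-65663094.

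RNA of 2 human cell lines was sequenced with the QuantSeq 3′ method in 32 libraries. HEK293T is a line derived from embryonic kidney, and U2OS is an osteosarcoma line. Cells were given camptothecin (CPT), which traps topoisomerase I on DNA, the ATM inhibitor KU-55933, or the solvent DMSO, or carried a knockout of the checkpoint kinase ATM. By the methods of the study, treatments lasted 24 h and were followed by 48 h of recovery in fresh medium, while the labels give 72 h of growth with no drug for the U2OS wild type and ATM KO cells. CPT doses are given for the proteomic experiments, at 100 nM in HEK293T and 400 nM in U2OS, and the inhibitor at 9 µM. The ATM KO cells were grown from individually picked clones after CRISPR/Cas9 editing, so that what a clone carries and what loss of ATM does cannot be told apart. Each group held 4 libraries, which the study describes as independent repeats.

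The groups were taken by library number. Libraries 26 to 29 are U2OS with CPT and 30 to 33 U2OS with DMSO, as labelled. Libraries 22 to 25 are HEK293T with DMSO, as labelled. Libraries 18 to 21 are labelled HEK293T ATM knockout and are taken here as the ATM inhibitor, because the study describes RNA sequencing of the inhibitor, and of no knockout, in HEK293T. For libraries 1 to 17, cell line markers went against the labels in 14 of 16 libraries, all but 1 and 17. Libraries 2, 4, 6 and 8 are labelled HEK293T CPT and 3, 5 and 7 HEK293T DMSO, yet all of them, like library 1 (labelled U2OS wild type), had the markers of U2OS. Libraries 10, 12, 14 and 16 are labelled U2OS ATM KO and 11, 13 and 15 U2OS wild type, yet all of them, like library 17 (labelled HEK293T DMSO), had the markers of HEK293T. These 16 libraries were therefore regrouped by number, as HEK293T libraries 10, 12, 14 and 16 (read as CPT) against 11, 13, 15 and 17 (read as DMSO), and U2OS libraries 2, 4, 6 and 8 (read as ATM KO) against 1, 3, 5 and 7 (read as wild type). Their conditions rest on this regrouping, and every direction given for them holds only under it.

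NF-κB factors are dimers of Rel proteins. RELA, RELB and REL carry a transactivation domain, while NFKB1 and NFKB2 encode the precursors of p50 and p52. In resting cells IκB proteins hold the dimers in the cytoplasm until the IκB kinase complex, whose scaffold is NEMO (encoded by IKBKG), marks IκB for degradation. Freed dimers switch on the genes of their own inhibitors, among them NFKBIA (IκBα), NFKBIE (IκBε) and TNFAIP3 (A20, a ubiquitin-editing enzyme), which closes a feedback loop. NFKBIZ encodes IκBζ, a nuclear IκB protein that acts as a cofactor at a subset of target genes, and BIRC3 encodes cIAP2, a ubiquitin ligase of TNF receptor complexes. ATM links double-strand breaks to this pathway through modification of NEMO in the nucleus.

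A κB site is the short DNA sequence that NF-κB dimers bind. Promoter windows from 250 bases before to 50 after each annotated start were taken from a table of RefSeq starts that was at hand for 8 of the 10 genes (GRCh38.p14; RELB and NFKBIE were not analysed here), and the 250 bases before each start were searched on both strands. The κB consensus of 10 bases was found for 6 of 8 genes, against 6.28% of 27305 genes with a window. Genes differ in their number of windows, and by window it was found in 8 of 16, against 5.21% of 35116. A looser form, GGG and CC with any 5 bases between them, which includes every match to the consensus, was found for 8 of 8 genes, but also for 57.8% of all genes. Some of the consensus matches are printed below, at least 1 for each of the 6 genes, to show the letters that these promoters share whether or not the gene was called in a comparison. Each stretch is 30 bases on the strand of the gene, with 1 match in capitals. NFKBIZ, NFKB2 and TNFAIP3 hold further matches that are not printed, part of a second match of TNFAIP3 stands in lower case at the end of its stretch, and a second match of NFKB2 overlaps the printed one, 1 base downstream.

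NFKBIZ, 223 bases before its upstream start: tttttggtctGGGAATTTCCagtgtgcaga

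NFKBIA, 81 bases before its start: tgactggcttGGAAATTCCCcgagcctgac

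NFKB1, 49 bases before its first start: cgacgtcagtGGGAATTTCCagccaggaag

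NFKB2, 107 bases before a start: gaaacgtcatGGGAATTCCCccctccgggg

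TNFAIP3, 67 bases before its start: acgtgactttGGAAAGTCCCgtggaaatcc

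BIRC3, 199 bases before its start: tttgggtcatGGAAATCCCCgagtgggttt

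BIRC3, 135 bases before its start: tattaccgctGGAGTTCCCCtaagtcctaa

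These windows lie at chr3:101827757-101827786 (NFKBIZ), chr14:35404811-35404840 (NFKBIA), chr4:102501300-102501329 (NFKB1), chr10:102394461-102394490 (NFKB2), chr6:137867182-137867211 (TNFAIP3), chr11:102317275-102317304 and chr11:102317339-102317368 (BIRC3), on the plus strand for all but NFKBIA. The matches of NFKBIZ and NFKB1 are the same 10 bases, GGGAATTTCC, and that of NFKBIA is the same sequence on the other strand. No match to the consensus was found for RELA and IKBKG. A match describes the letters of the window only.

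The libraries held 1232674 to 6362433 counts on genes (median 3359463), with libraries 1 to 4 the shallowest. Levels are given as normalised CPM, that is counts on genes scaled to library size (CPM) and by TMM factors over all 32 libraries. QuantSeq reads 1 stretch near the 3′ end of an mRNA, so that counts are not meant to grow with its length. Levels of different genes are set side by side on that basis. How read assignment differs between genes was not tested. The summed level of 8 U2OS markers was 2188 to 7107 normalised CPM in the U2OS sets and 52.0 to 129 in the HEK293T sets. That of 6 HEK293T markers was 123 to 457 and 487 to 943, where CDKN2A, NEFM and LIN28B separated the lines, while SOX2, NEFL and PAX2 did not. IKBKG was listed at 0 counts in all 32 libraries. A partial, near-identical copy of this gene exists, and how the counting treated reads that match both is not given in the sources used here, so that its level is uncertain. The other 9 members were tested in every comparison. A gene is called changed at a Benjamini-Hochberg adjusted p under 0.05 in edgeR's quasi-likelihood test, with fold changes on the log2 scale.

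In DMSO-treated cells RELA, NFKBIA and NFKB1 were the most abundant members. In U2OS with DMSO, RELA led with 44.5 ± 4.44 normalised CPM (SD, n = 4), ahead of NFKBIA with 33.3 ± 2.77, and the ranges of these neighbours did not overlap. NFKBIA, NFKB1 (30.3 ± 3.43), NFKBIZ (20.5 ± 7.63) and NFKB2 (15.4 ± 1.90) followed, each overlapping with the next. RELB (9.90 ± 0.914) and BIRC3 (9.57 ± 2.36) also overlapped, while TNFAIP3 (5.14 ± 0.788) and NFKBIE (2.79 ± 0.630) were the lowest. In the HEK293T libraries 22 to 25 with DMSO, NFKBIA led with 35.0 ± 2.63, followed by RELA with 29.3 ± 1.73 and NFKB1 with 17.4 ± 2.58. NFKBIZ was at 7.39 ± 0.574, TNFAIP3, RELB and NFKBIE each lay under 4 in all of these libraries, and BIRC3 had 4 counts in the 4 libraries together. In the HEK293T libraries 11, 13, 15 and 17, read as DMSO, RELA (40.4) and NFKBIA (38.9) stood side by side with overlapping ranges. The plot of the members by library shows these levels beside those of the treated and knockout sets.

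**Figure D1:**
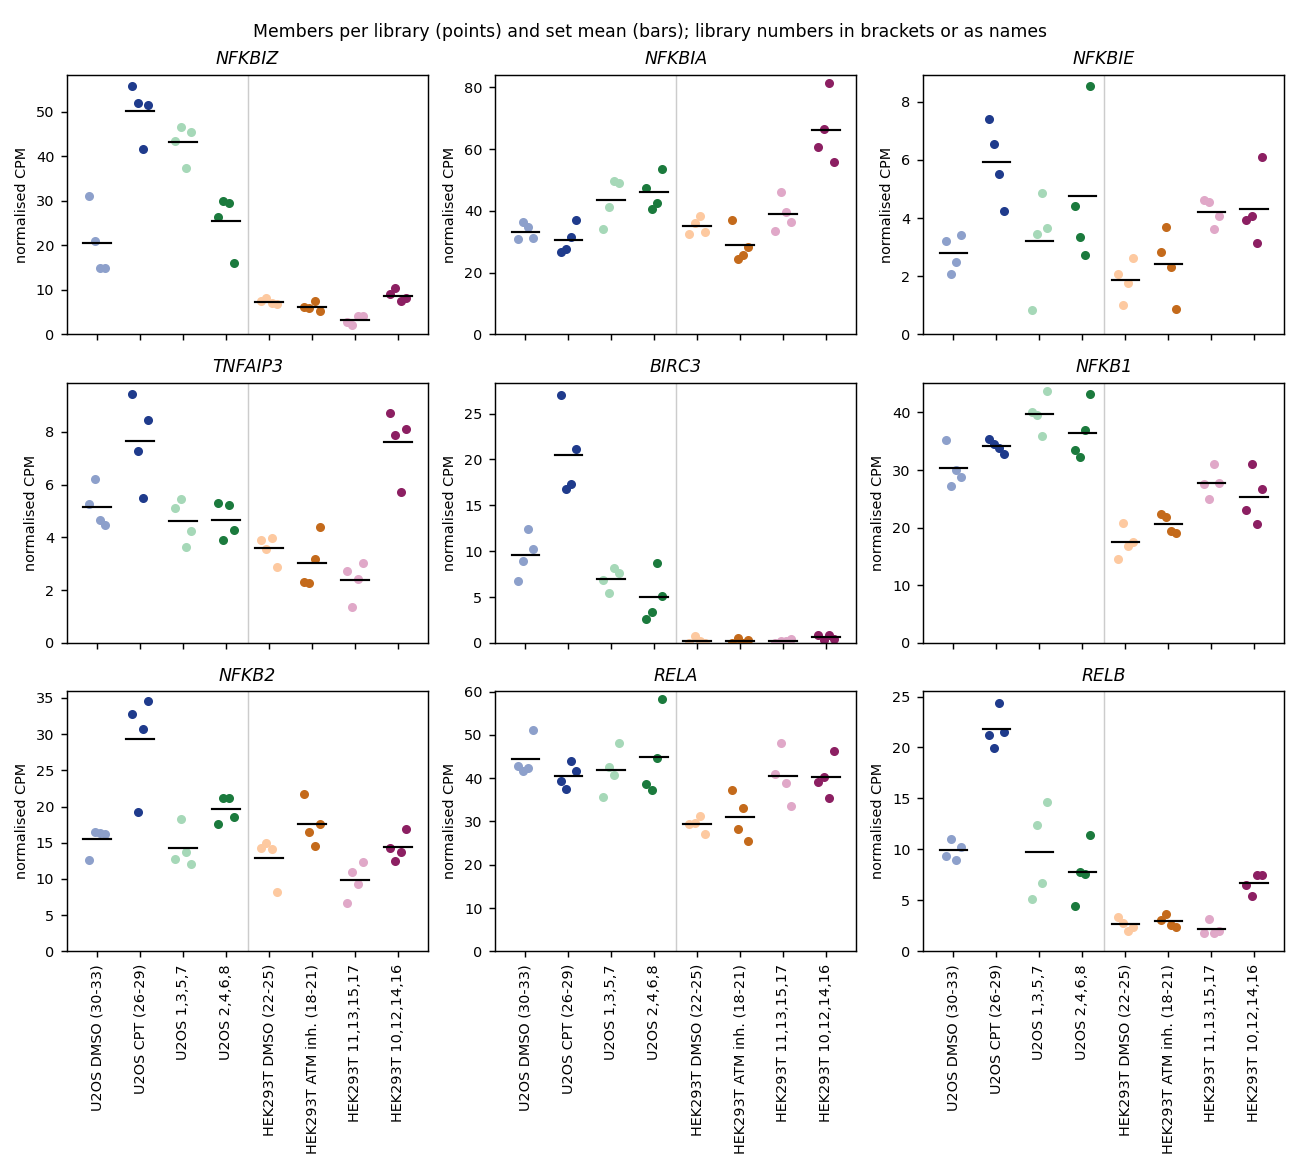
Each panel gives 1 member, with normalised CPM on the vertical axis (linear, from 0) and the 8 sets of 4 libraries on the horizontal axis, named by cell line and library numbers; points are libraries and bars are set means. NFKBIZ reached 41.7 to 55.7 in U2OS with CPT against 14.8 to 31.1 with DMSO, BIRC3 was near 0 in all HEK293T sets, and RELA and NFKB1 overlapped between each treated or knockout set and its control.

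The first comparison asked how CPT changed these genes in U2OS, where the labels of both groups held. Of 9 members tested, 5 rose and 0 fell. They were the nuclear cofactor NFKBIZ, the alternative-pathway factors RELB and NFKB2, the inhibitor NFKBIE and the ubiquitin ligase BIRC3. Over all 19080 genes tested, 31.9% were called and 16.6% were called higher. The median log2 fold change of the members was 0.93, against 0.0079 over all genes. The members were chosen with earlier results of these data known, so that neither their share of higher calls nor this median is a test against the background.

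NFKBIZ lay at 55.7, 52.0, 41.7 and 51.4 normalised CPM in the CPT libraries 26 to 29, and at 31.1, 21.02, 14.8 and 14.9 in the DMSO libraries 30 to 33. All CPT libraries were above all DMSO libraries, and library 30 stood highest among the controls. The log2 fold change was 1.31 with a standard error of 0.18 and an adjusted p of 5.06e-07, a 2.47-fold rise.

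RELB, the Rel partner of p52, was at 21.3, 19.996, 24.4 and 21.5 with CPT and at 9.38, 11.02, 8.97 and 10.2 with DMSO. The groups did not overlap and the spread within each was small. Its log2 fold change was 1.14 (SE 0.18, adjusted p = 4.78e-06). NFKB2, the precursor of p52, was at 32.7, 19.3, 30.7 and 34.5 with CPT, where library 27 was the lowest, and at 12.6, 16.5, 16.4 and 16.3 with DMSO. It rose by 0.93 (SE 0.18, adjusted p = 9.55e-05), so that both genes of the RELB and p52 dimer were called higher.

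BIRC3 was at 26.99, 16.7, 17.3 and 21.1 with CPT and at 6.74, 8.96, 12.4 and 10.2 with DMSO, again without overlap, and its log2 fold change was 1.11 (SE 0.20, adjusted p = 6.30e-05). NFKBIE, which rests on 66 counts with CPT and 38 with DMSO, was at 4.23 to 7.42 against 2.07 to 3.41 and rose by 1.07 (SE 0.31, adjusted p = 0.00729). The other feedback inhibitors did not pass the test. TNFAIP3 was at 5.50 to 9.45 with CPT and 4.46 to 6.20 with DMSO, a difference of 0.60 (SE 0.25, adjusted p = 0.0694), which passed without library 28 (0.72, adjusted p = 0.0407). NFKBIA was at 26.7 to 37.0 and 30.8 to 36.5, a difference of -0.11 (SE 0.14).

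The subunits of the classical dimer did not pass either. NFKB1 was at 32.8 to 35.4 with CPT and 27.2 to 35.2 with DMSO (log2 fold change 0.18, SE 0.14), and RELA at 37.4 to 44.0 and 41.7 to 51.1 (-0.13, SE 0.13). Groups that did not overlap were found for 5 members, all higher with CPT, and for 30.1% of all genes. At the stricter cutoff of an absolute log2 fold change over 1, 4 members were higher, against 7.97% of all genes.

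Of the other genes of the pathway, grouped in 6 lists, 17 of 62 tested rose with CPT in U2OS and 4 fell. Over all 19080 genes, 16.6% were called higher and 15.28% lower. Among ligands and receptors 4 of 8 rose, among adaptors and kinases 3 of 18, among other inhibitors and brakes 2 of 8, and among target genes 6 of 17, where 1, IER3, fell (732 to 997 normalised CPM with DMSO and 409 to 463 with CPT, -1.01). Of the 4 other Rel and IκB proteins 1 rose and 1 fell, while the 7 genes of the branch that runs from DNA breaks to NEMO gave 1 higher and 2 lower. The shares of adaptors and kinases and of other brakes that rose lay near that of all genes. The acute-phase gene SAA1 was at 14.5, 18.9, 22.01 and 20.8 normalised CPM with CPT against 0.293, 2.07, 1.55 and 1.57 with DMSO, a log2 fold change of 3.78 (SE 0.30, adjusted p = 1.04e-11). TLR3, a receptor of double-stranded RNA, was at 13.2 to 24.8 against 1.31 to 3.40 (2.98, SE 0.27, adjusted p = 2.59e-10). The chemokine gene CCL20 was at 7.27 to 10.1 against 0.524 to 3.52 (1.88, SE 0.33, adjusted p = 4.07e-05).

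BCL2L1, which encodes the survival protein BCL-XL, rose by 1.44 (SE 0.14) and CYLD, a deubiquitinase that limits NF-κB signalling, by 1.40 (SE 0.13). Low counts carried the calls of TRAF1, IL1A and BCL2A1. IL1A and BCL2A1 passed the filter on low counts only through the CPT libraries, which favoured their direction. The shares of ligands and receptors, of target genes and of all pathway genes that rose rest in part on these calls. TRAF1 had 23 counts with CPT and 8 with DMSO (1.73, SE 0.55, adjusted p = 0.0159; 0.0561 without library 26 and 0.0515 without library 32). IL1A, a cytokine, had 9 counts against 1, a ratio of 10.8 with a 95% counting interval of 1.502 to 475, and the survival gene BCL2A1 had 10 against 1, a ratio of 12.04 (1.71 to 522.5). The calls of these 2 genes were lost on leaving out single libraries (IL1A 26, 27, 30, 31 or 32, adjusted p 0.0696 to 0.0811; BCL2A1 30, 31 or 33, adjusted p 0.0767 to 0.0846). DESeq2 called none of the 3 (adjusted p = 0.0670 for TRAF1, 0.0860 for IL1A and 0.0838 for BCL2A1), and it called 16 of the 62 pathway genes, 14 of them higher. Cell line markers moved with CPT as well. The 8 U2OS markers summed to 5974 to 7107 with CPT against 3445 to 4624 with DMSO, and the 6 HEK293T markers to 177 to 191 against 340 to 457; the part of this in the results above was not tested.

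The second comparison asked what the ATM inhibitor changed in HEK293T (libraries 18 to 21, labelled ATM knockout, against 22 to 25). Of 9 members 0 were called by edgeR, and 1 gene of 18413 was (0.00543%). Groups that did not overlap were found for 0 members and for 3.08% of all genes. Only NFKB2 had an unadjusted p under 0.05, as did 5.53% of all genes. It was at 21.8, 16.5, 14.5 and 17.6 normalised CPM with the inhibitor and 14.3, 14.98, 14.2 and 8.13 with DMSO, where library 25 was the lowest and the groups overlapped. The log2 fold change was 0.46 (SE 0.18, unadjusted p = 0.0144, adjusted p = 0.851). DESeq2, the likelihood ratio test and the other settings also gave 0 members.

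The remaining members lay between -0.27 (NFKBIA, SE 0.13) and 0.40 (NFKBIE, SE 0.41). NFKBIA was at 36.9, 24.4, 25.8 and 28.1 with the inhibitor and 32.5, 36.0, 38.3 and 33.3 with DMSO, where library 18 alone reached the control range. NFKBIZ was at 5.28 to 7.54 and 6.82 to 8.12, and TNFAIP3 at 2.27 to 4.397 and 2.88 to 3.98, so that both overlapped. BIRC3 had 3 counts against 4, and no fold is given. Of 58 pathway genes tested, 0 were called and 2 had an unadjusted p under 0.05, against 5.53% of all genes.

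The third comparison was that of the HEK293T libraries 10, 12, 14 and 16 (labelled U2OS ATM KO, read as CPT) against 11, 13, 15 and 17 (labelled U2OS wild type and, for 17, HEK293T DMSO, read as DMSO). Of 9 members, 5 were higher in the even-numbered libraries and 0 lower. Here the feedback inhibitors TNFAIP3 and NFKBIA were among them, beside RELB, NFKBIZ and NFKB2. Over all 19464 genes, 34.9% were called and 17.6% were called higher. With the groups as labelled, 0 members were called.

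TNFAIP3 was at 8.71, 7.88, 5.72 and 8.09 normalised CPM in libraries 10, 12, 14 and 16 and at 2.72, 1.35, 2.42 and 3.04 in libraries 11, 13, 15 and 17. The groups did not overlap. Its log2 fold change of 1.69 (SE 0.27, adjusted p = 3.32e-05), or 3.23-fold, was the largest among the called members. NFKBIA, at 60.7, 66.6, 81.3 and 55.9 against 33.4, 46.003, 39.7 and 36.3, was 1.72-fold higher (0.78, SE 0.15, adjusted p = 2.08e-04), and it was the most abundant member of the even-numbered set.

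RELB was at 6.46, 5.43, 7.44 and 7.48 against 1.76, 3.21, 1.81 and 2.03, with a log2 fold change of 1.61 (SE 0.27, adjusted p = 6.13e-05). NFKBIZ was at 8.99, 10.3, 7.44 and 8.09 against 2.72, 2.20, 4.03 and 4.05, with 1.44 (SE 0.25, adjusted p = 9.37e-05). Both were without overlap between the groups. NFKB2 was at 14.3, 12.5, 13.7 and 16.9 against 6.71, 10.99, 9.27 and 12.4, and its groups lay close together. It was called at 0.58 (SE 0.20, adjusted p = 0.0251), and this call was lost without library 10 (adjusted p = 0.0502), 11 (0.118), 15 (0.0549) or 16 (0.0673).

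The other members were not called. NFKBIE was at 3.15 to 6.11 against 3.63 to 4.64, NFKB1 at 20.6 to 30.97 against 25.03 to 31.04 and RELA at 35.5 to 46.3 against 33.6 to 48.2, all with overlap and with log2 differences between -0.12 and 0.086. BIRC3 had 10 counts against 4, a ratio of 3.19 with a counting interval of 0.920 to 13.9. Groups that did not overlap were found for 5 members and for 30.3% of all genes. At the stricter cutoff 3 members were higher, against 9.52% of all genes.

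Among the pathway lists, 19 of 58 genes were higher and 2 lower, against 17.6% and 17.25% of all genes. The target genes held 9 of the higher calls, of 15 tested, with a median log2 fold change of 1.52 against 0.041 over all genes. Among these 15, CCL20, CXCL8, CXCL1, CXCL2 and MMP9 passed the filter on low counts only through the even-numbered libraries. The share and the median rest in part on them, and the filter favoured their direction. Of the 8 other brakes 5 were higher. The stress-response gene IER3 was at 71.4, 74.7, 51.8 and 89.0 normalised CPM against 14.5, 12.2, 11.7 and 14.6 (2.45, SE 0.15, adjusted p = 7.60e-11). Of the 6 chemokine genes listed, 4 were called, all from a few counts, while CXCL2 (11 counts against 3) was not called and CCL2 (3 against 0) was not tested. CXCL8 had 68 counts against 2, a ratio of 43.4 with a counting interval of 11.6 to 366, and lay at 3.66 to 4.21 in all even-numbered libraries. CXCL1 had 27 against 3, a ratio of 11.5 (3.54 to 59.2), and CXCL3 29 against 7, a ratio of 5.29 (2.27 to 14.3). CCL20 had 27 counts against 0, a ratio of 11.5 when set against a floor of 3 counts over the control group and at least 8.72-fold higher by the exact 95% counting limit, and library 16 was the lowest of its group with 0.153.

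The protease genes PLAU and MMP9 and the receptor gene IL1R1 were called at 1.52, 1.92 and 1.30 on 36, 13 and 29 counts against 16, 4 and 15. PLAU was not called without library 12 (adjusted p = 0.0734), MMP9 without any library but 13 (up to 0.119), and IL1R1 without library 10, 13, 14, 15 or 17 (up to 0.0959). The share of counts in the summary rows of the pipeline moved with the groups, at 17.02 to 19.8% in the even-numbered and 10.9 to 12.4% in the odd-numbered libraries. The U2OS markers summed to 91.6 to 129 against 52.0 to 67.1 normalised CPM and the HEK293T markers to 588 to 604 against 722 to 943. The part of these in the results was not tested.

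The fourth comparison set the U2OS libraries 2, 4, 6 and 8 (labelled HEK293T CPT, read as ATM KO) against 1, 3, 5 and 7 (labelled HEK293T DMSO and, for 1, U2OS wild type, read as wild type). Of 9 members, 0 were higher and 1, NFKBIZ, was lower, against 6.43% called higher and 6.56% called lower over all 18591 genes. NFKBIZ was at 26.4, 30.03, 29.5 and 16.03 normalised CPM in libraries 2, 4, 6 and 8 and at 43.4, 46.5, 37.4 and 45.4 in libraries 1, 3, 5 and 7. The groups did not overlap, as was found for 1 of 9 members and 15.1% of all genes, and library 8 was the lowest. At the stricter cutoff 0 members were called, against 5.24% of all genes. The log2 fold change of NFKBIZ was -0.80 (SE 0.19, adjusted p = 0.00161). Without libraries 1 to 4, the shallowest, it was -0.92 with an adjusted p of 0.0506, and 0 members were called. ATM itself was at 66.9, 61.2, 61.1 and 35.4 normalised CPM in libraries 2, 4, 6 and 8 and at 69.0, 78.2, 59.3 and 65.6 in libraries 1, 3, 5 and 7, with overlap. Where the edit lies is not given in the sources used here, and a 3′ tag outside it does not check a knockout.

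NFKB2 was at 17.6, 21.1, 21.1 and 18.5 against 12.8, 18.3, 13.7 and 12.1, with overlap through library 3, and its difference of 0.47 had an unadjusted p of 0.0277 and an adjusted p of 0.134. RELB was at 4.402 to 11.4 against 5.11 to 14.6, with overlap. BIRC3 was at 2.64, 3.34, 8.72 and 5.16 against 6.81, 5.45, 8.20 and 7.61, so that libraries 2, 4 and 8 lay below every control library and library 6 above them. Its difference of -0.34 (SE 0.31) was not called, nor was that of -0.78 without library 6 (adjusted p = 0.181). TNFAIP3 differed by 0.052 (SE 0.34) and NFKBIA by 0.053 (SE 0.17). NFKB1 (-0.11), RELA (0.11) and NFKBIE (0.48, SE 0.38) did not pass the test either.

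Of 60 pathway genes, 2 were higher and 8 lower, against 6.43% and 6.56% of all genes. Of the 8 lower genes, 7 were among the 16 target genes. IER3 was at 211, 284, 248 and 349 normalised CPM in libraries 2, 4, 6 and 8 against 667, 677, 660 and 845 (-1.38, SE 0.16, adjusted p = 1.36e-09), which did not overlap. The chemokine gene CCL2 was at 4.45 to 10.6 against 12.4 to 17.3 (-1.11, SE 0.27, adjusted p = 0.00227), and MMP9 had 10 counts against 38 (-2.36, SE 0.56, adjusted p = 0.00199). The TNF receptor gene TNFRSF1A was higher, at 195, 249, 227 and 246 against 135, 140, 198 and 134 (0.59, SE 0.15, adjusted p = 0.00472).

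The other 4 target genes named by the rule lost their calls when any of several libraries was left out. CCL20, with 5 counts against 18 (-2.23), was called in full but not without any library other than 7 (adjusted p up to 0.198). LIF, a cytokine of the IL-6 family (-1.15), was not called without library 1, 3, 4, 5, 6 or 8 (up to 0.211), PTGS2, which encodes cyclooxygenase 2 (-0.98), without 1, 2, 3, 5, 6 or 8 (up to 0.127), and PLAU (-0.87) without 1, 3, 5, 6 or 8 (up to 0.442). As each library was left out, the log2 fold changes stayed negative. They were at -2.73 to -1.88 (CCL20), -1.49 to -0.93 (LIF), -1.13 to -0.81 (PTGS2) and -1.225 to -0.47 (PLAU). The number of pathway genes called, 10 in full, then ranged from 4 to 12. It fell to 6 without library 1, 5 without 3, 6 without 5, 4 without 6 and 3 without libraries 1 to 4. The summed U2OS markers were at 2188 to 2709 in the even-numbered and 3712 to 5178 in the odd-numbered libraries, and the part of this in the results was not tested.

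**Figure D2:**
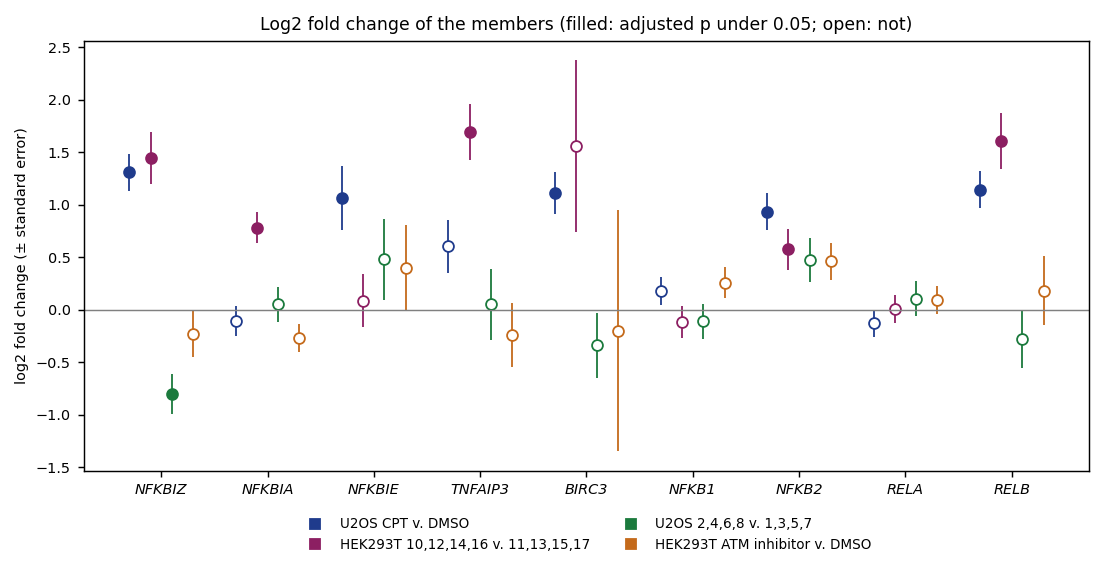
Log2 fold change of each tested member (vertical axis, with standard error bars) in 4 comparisons of 4 against 4 libraries, named by cell line and library numbers; filled points passed an adjusted p of 0.05 and open points did not. NFKBIZ was called at 1.31 and 1.44 in the CPT comparisons (HEK293T as regrouped) and at -0.80 in U2OS libraries 2, 4, 6 and 8, while NFKBIA and TNFAIP3 were called in the regrouped HEK293T libraries and in none of the other 3 comparisons.

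**Figure D3:**
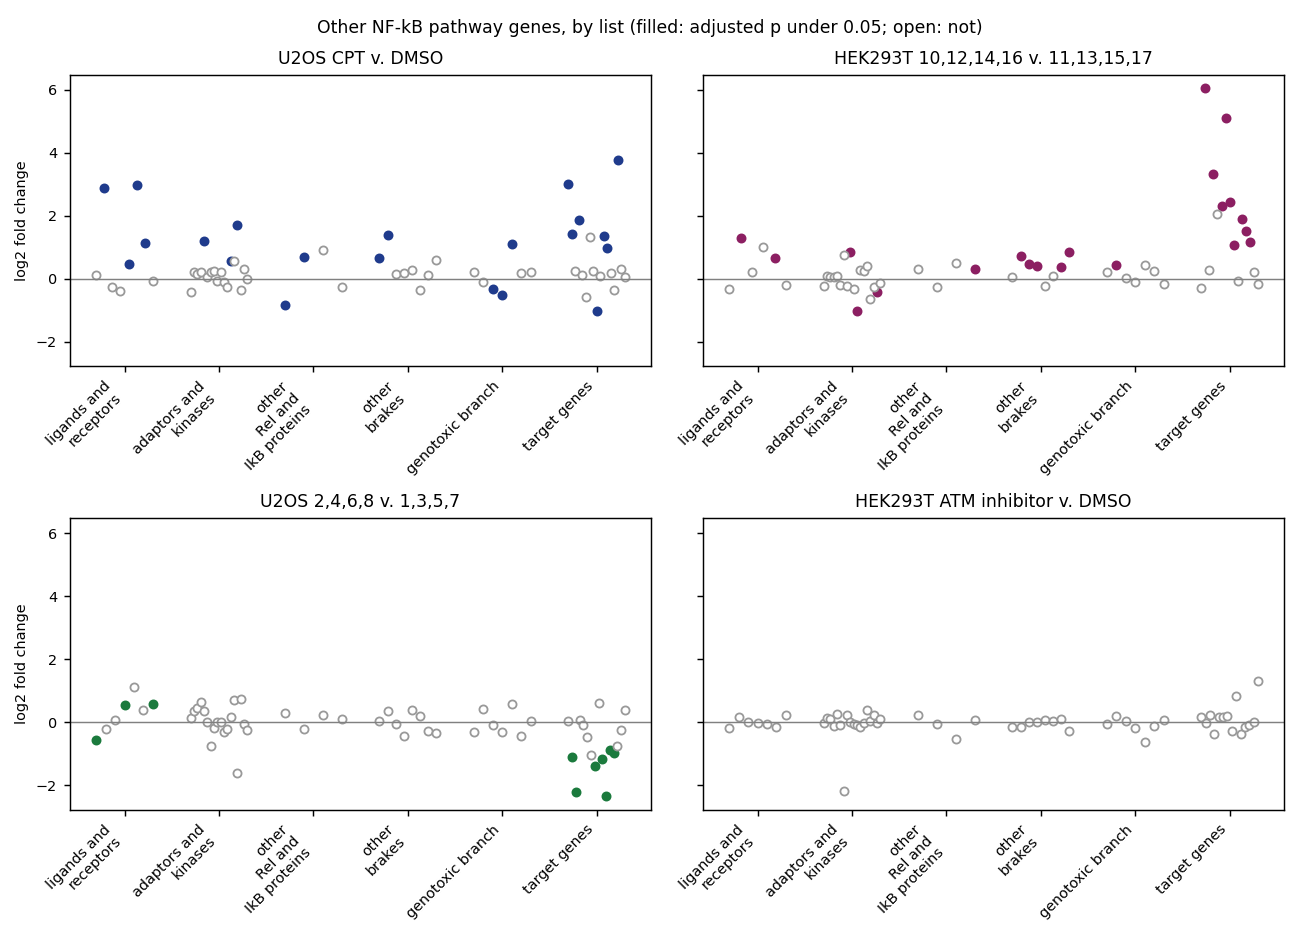
Log2 fold change (vertical axis, shared by the 4 panels) of the other tested NF-κB pathway genes, arranged by list on the horizontal axis, with 1 point per gene, filled where the adjusted p was under 0.05. Target genes spread furthest upward in HEK293T libraries 10, 12, 14 and 16, where 9 of 15 were called higher. Of these 15, CCL20, CXCL8, CXCL1, CXCL2 and MMP9 passed the filter on low counts only through those libraries. Target genes spread furthest downward in U2OS libraries 2, 4, 6 and 8, where 7 of 16 were called lower. No point is filled for the ATM inhibitor.

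The responses to CPT in the lines were also compared with each other, by testing the difference of the log2 fold changes in 1 fit. Of 9 members, 2 differed, both with the smaller response in U2OS, against 20.3% of 22363 genes called and 10.5% called in this direction. The share of members, 2 of 9, lies near this background. At the stricter cutoff 1 member differed, against 11.9%. NFKBIA differed by -0.88 (SE 0.21, adjusted p = 0.00119), from -0.11 in U2OS and 0.78 in the regrouped HEK293T libraries. TNFAIP3 differed by -1.09 (SE 0.38, adjusted p = 0.0328), from 0.60 and 1.69. This second call was lost without library 10 (adjusted p = 0.0587), 13 (0.0895), 27 (0.0587), 28 (0.0774), 30 (0.0505) or 31 (0.0762), and with no filter on low counts (0.0557).

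For the members called higher in both lines, the difference did not pass: NFKBIZ -0.14 (SE 0.30), RELB -0.46 (SE 0.32) and NFKB2 0.35 (SE 0.27). NFKBIE, with 0.97 (SE 0.40, adjusted p = 0.0840), was called without library 16 (adjusted p = 0.0285) or 29 (0.0422). Over all 22363 genes, 9.865% were called with the larger and 10.5% with the smaller response in U2OS. Among the pathway genes these were 7 of 64, near that background, and 10 of 64. The largest of these with a high count was IER3, at 2.45 in the regrouped HEK293T libraries and -1.01 in U2OS, where it went from 732, 979, 782 and 997 normalised CPM with DMSO to 418, 409, 463 and 428 with CPT (difference -3.47, SE 0.20, adjusted p = 7.20e-18). BCL2L1 went the other way, with a difference of 1.70 (SE 0.26, adjusted p = 1.49e-06). Cell line, dose and set of libraries differ together between these responses and cannot be told apart.

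Within U2OS, the CPT response minus the difference between libraries 2, 4, 6 and 8 and libraries 1, 3, 5 and 7 was tested in the same way, to set DNA damage beside loss of ATM. Of 9 members 3 were higher after CPT and 0 lower, against 17.7% of 20539 genes called, 1849 of them higher. All 3 also passed the stricter cutoff, against 10.8% of all genes. NFKBIZ differed by 2.11 (SE 0.26, adjusted p = 4.20e-09), from 1.31 with CPT and -0.80 in the regrouped libraries. RELB differed by 1.41 (SE 0.33, adjusted p = 0.00117) and BIRC3 by 1.43 (SE 0.37, adjusted p = 0.00299). NFKB2, at 0.93 with CPT and 0.47, which was not called, in the regrouped libraries, differed by 0.46 (SE 0.27, adjusted p = 0.267). The sets of libraries differ together with the treatments here and cannot be told apart from them: NFKBIZ in the control libraries 1, 3, 5 and 7 (37.4 to 46.5) reached the range of the CPT libraries (41.7 to 55.7), and libraries 2, 4, 6 and 8 (16.03 to 30.03) lay within that of the DMSO libraries 30 to 33 (14.8 to 31.1).

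The last comparison asked how the lines differ without damage. It was made in libraries 30 to 33 against 22 to 25 and again in libraries 1, 3, 5 and 7 against 11, 13, 15 and 17, which are the control libraries of the comparisons above, so that these values are not independent of them. In the first pair 5 of 9 members were called, all higher in U2OS, against 62.1% of all genes called and 6315 of 19739 called higher. In the second pair, whose cell lines rest on the markers and not on the labels, 6 of 9 were called, again all higher, against 64.4% called and 33.3% called higher. At the stricter cutoff 3 and 4 members were called, against 39.9% and 44.6% of all genes, and groups did not overlap for 6 and 5 members, against 54.7% and 56.0%. All of these counts include BIRC3, which passed the filter on low counts only through U2OS.

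BIRC3 stood furthest apart, but in both pairs it passed the filter on low counts only through the U2OS libraries, which favoured this direction. It had 128 counts in U2OS and 4 in HEK293T in the first pair, a ratio of 38.6 with a counting interval of 14.7 to 144, and 73 against 4 in the second, a ratio of 40.1 (15.02 to 151). In the first pair 3 of the 4 HEK293T counts lay in library 23, and the fitted log2 fold change was 4.75 to 6.38 as each library was left out, highest without library 23. RELB was at 8.97 to 11.02 against 1.99 to 3.38 normalised CPM (log2 fold change 1.92, SE 0.25, adjusted p = 5.34e-08), and at 5.11 to 14.6 against 1.76 to 3.21 (2.297, SE 0.31, adjusted p = 6.88e-08). Both genes were without overlap in either pair, as were the levels of NFKBIZ.

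The size of the NFKBIZ difference was not alike in the pairs. It was 1.47 (SE 0.22) in the first, at 14.8 to 31.1 against 6.82 to 8.12, and 3.85 (SE 0.21) in the second, at 37.4 to 46.5 against 2.20 to 4.05. U2OS libraries 1, 3, 5 and 7 were above all of 30 to 33, and HEK293T libraries 11, 13, 15 and 17 below all of 22 to 25. This contrast of pairs was not tested, and solvent differs between these U2OS sets as read. NFKB1 was higher by 0.81 (SE 0.15) and 0.63 (SE 0.15). RELA was called in the first pair (0.61, SE 0.13, adjusted p = 9.66e-05) and not in the second (0.18, SE 0.15). TNFAIP3 (1.01, SE 0.34, adjusted p = 0.0108) and NFKB2 (0.64, SE 0.22, adjusted p = 0.0125) were called in the second and not in the first. NFKB2 was not called there without library 3 (adjusted p = 0.1004) or 11 (0.0681).

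NFKBIA did not pass in either pair, with -0.07 (SE 0.13) and 0.30 (SE 0.15), although it was called in the second without library 13 (0.40, adjusted p = 0.0200). The TMM factors of the second pair differed by -0.36 on the log2 scale (U2OS minus HEK293T), the most of all comparisons. With no scaling factor, a setting added after the data were seen, BIRC3, NFKBIZ and RELB were still called there and NFKB1, NFKB2 and TNFAIP3 were not, while NFKBIA and RELA changed sign. Of the pathway genes, 29 of 59 were higher and 11 lower in the first pair, and 30 and 13 in the second. Over all genes 31.99% were called higher and 30.1% lower in the first pair, and 33.3% and 31.07% in the second. In both pairs 6 of 7 ligands and receptors tested were higher in U2OS, with IER3 (5.39 and 5.85) among the target genes. Some genes called higher passed the filter on low counts only through U2OS. In the second pair they include LTBR, CCL2, CCL20 and SAA1, each with 0 counts in HEK293T. In the first they include CCL2, with 1 count in HEK293T. The numbers of higher calls rest in part on such genes, and the filter favoured their direction. Traces of U2OS markers were present in HEK293T libraries 22 to 25, where THBS1 was at 3.93 to 10.4 and CD44 at 2.10 to 8.07 normalised CPM, and LTBR had 14 counts there and 0 in libraries 11, 13, 15 and 17; their part in the first pair was not tested.

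**Figure D4:**
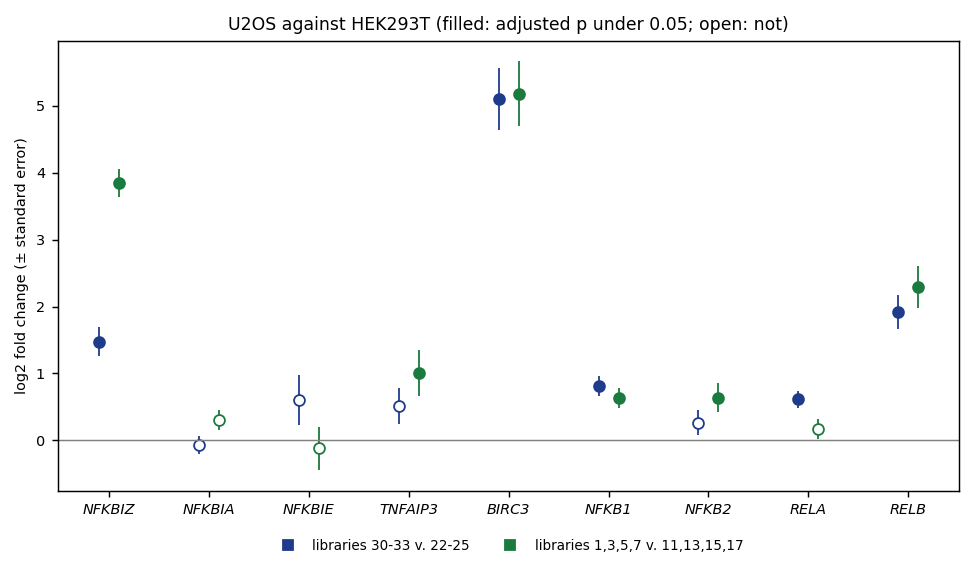
Log2 fold change of U2OS over HEK293T for each tested member (vertical axis, with standard error bars) in 2 separate pairs of sets, named by library numbers, filled where the adjusted p was under 0.05. BIRC3 stood at 5.10 and 5.18, NFKBIZ stood at 1.47 and 3.85, and NFKBIA and NFKBIE were open in both. BIRC3 passed the filter on low counts only through U2OS.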

How the data were processed

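The authors deposited counts of reads per gene for 32 QuantSeq 3′ FWD libraries, made with the UMI version of the Lexogen pipeline and without normalization. The aligner, genome build and annotation are not given in the sources used here. The table held 60107 genes, of which 56531 had a symbol in GENCODE 29. The 92 spike-in rows and 5 summary rows, which together held 10.9 to 40.6% of all counts, were left out of library sizes and tests. No 2 libraries of a set agreed within sampling noise.

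edgeR 4.0.16 (run in R 4.3.3) was used with TMM factors and its quasi-likelihood test, keeping each gene that had over 1 count in 2 or more of the libraries fitted, and p-values were adjusted over all genes by Benjamini-Hochberg. Log2 TMM factors differed between the groups by more than 0.1 in the U2OS CPT comparison (-0.17), both cell line comparisons (-0.22 and -0.36) and both differences of responses (-0.16 and -0.15), while the median fold change over all genes stayed between -0.064 and 0.041. The likelihood ratio test, DESeq2 1.42.0, RLE normalization, other filters, all libraries in one fit, a fold change cutoff, groups by label, other controls and each library left out were alternatives. On data simulated from the U2OS CPT and DMSO libraries, 90% of genes changed 2-fold were recovered. The changed genes were drawn only from those above a minimum mean level. This share therefore does not cover genes at low counts, such as TRAF1 and IL1A. A floor of 3 counts corresponds to 0.472 to 2.43 CPM. Floors and counting intervals (exact, 95%) cover counting error only.

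The members, pathway lists and tests were chosen with earlier results of these data known. All 10 members were named in each comparison, and at most 8 called pathway genes, those with the largest absolute log2 fold change. Others were named after their values were seen (IER3 with CPT in U2OS, and marker genes). P-values set the difference between groups against the spread between the libraries within a set.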

Additional observations from a re-analysis of the deposited data

Results flagged for a closer look

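In 3 of 72 sets of 4 libraries, 1 library lay far from the other 3 by Dixon's test, which chance gives in about 1 of 20 sets. NFKB2 was low in HEK293T DMSO library 25, at 8.13 normalised CPM against 14.2 to 14.98 in the other 3, and in U2OS DMSO library 30, at 12.6 against 16.3 to 16.5. RELA was high in U2OS DMSO library 33, at 51.1 against 41.7 to 42.8. Both outlying values of NFKB2 are in control libraries, and without library 25 its difference with the ATM inhibitor was 0.30.

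The CPT response differed between the lines for 2 members by a test of the difference, with HEK293T as regrouped. The difference of log2 fold changes (U2OS minus HEK293T) was -0.88 for NFKBIA and -1.09 for TNFAIP3. These are 2 of 9 members, near the 20.3% of all genes called, and the call of TNFAIP3 was lost on leaving out any 1 of 6 libraries, and with no filter on low counts. Within U2OS, the CPT response and the difference between the regrouped libraries (2, 4, 6 and 8 against 1, 3, 5 and 7) differed by 2.11 for NFKBIZ, 1.41 for RELB and 1.43 for BIRC3. NFKBIZ is the member whose 2 log2 fold changes, 1.31 and -0.80, were both called and had opposite signs. The second was not called without libraries 1 to 4 (edgeR adjusted p = 0.0506), although its size was then no smaller. The sets of libraries differ together with the treatments and cannot be told apart from them.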

How the results depend on the processing

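No paired analysis was made, because the groups compared share no replicate numbers and no label ties their libraries into pairs. Whether libraries were paired by repeat was not tested. In the U2OS CPT comparison the number of members called was 5 or 6, and with the ATM inhibitor 0, under every alternative run apart from the fold change cutoff, which left 4 in U2OS with CPT. That cutoff (an absolute log2 fold change over 1) left 3 of 5 members in the regrouped HEK293T libraries, 0 of 1 in the regrouped ATM KO comparison, 3 of 5 in the first cell line pair and 1 of 2 in the difference of CPT responses. With groups by label, 0 members were called in the HEK293T CPT comparison, where the differences of NFKB1 (0.46), CCL20 (-0.95), IER3 (-0.067) and MMP9 (-0.71) changed sign. By label the ATM KO comparison called TNFAIP3 (1.58, edgeR adjusted p = 0.0488) and not NFKBIZ, and gave RELB 1.35, CCL20 3.60, PTGS2 0.77 and TNFRSF1A -0.99, all of opposite sign. In both, the labelled control group holds libraries of either line by their markers.

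Without libraries 1 to 4, a setting added after the data were seen, 0 members were called in the ATM KO comparison and NFKBIA was at -0.087. With no scaling factor, also added later, 3 members were called in the second cell line pair, with NFKBIA at -0.041 and RELA at -0.17. With no filter, 1 member was called in the difference of CPT responses. With all 8 libraries labelled HEK293T DMSO as controls of the ATM inhibitor, 3 of which had U2OS markers, NFKBIE was at -0.26, NFKB1 at -0.39, RELA at -0.18 and RELB at -0.95. RELA in the regrouped HEK293T libraries was at -0.00013 with all libraries in one fit. The causes of these changes were not tested.

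Leaving out each library in turn, the members called ranged from 1 to 3 in the difference of CPT responses. Log2 fold changes that crossed 0 belonged to members that were not called: BIRC3 (-0.94 to 0.0016) and NFKBIZ (-0.27 to 0.14) in the difference of CPT responses, BIRC3 (-0.55 to 0.21) and RELA (-0.0035 to 0.18) with the ATM inhibitor, NFKBIE (-0.13 to 0.19) and RELA (-0.066 to 0.10) in the regrouped HEK293T libraries, and NFKBIA (-0.058 to 0.11), NFKBIE (-0.21 to 0.76), RELA (-0.066 to 0.17), RELB (-0.56 to 0.012) and TNFAIP3 (-0.074 to 0.14) in the regrouped ATM KO comparison. Depth limits BIRC3 in HEK293T, which had at most 3 counts in any library of that line, so that a small change there was not detectable.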
